A study of Mus musculus with 23 samples.

Results

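The fatty acid oxidation genes and targets of peroxisome proliferator activated receptor alpha (PPAR alpha) described here are 37 genes. They were chosen by name from the roles of their products, with earlier results of these data known. All 37 were found among the 48895 gene symbols of a deposited RNA-seq table. Messenger RNA was measured in 3 groups of male BALB/c mice that were 4 to 6 weeks old when the experiment began. The primary tumor and the liver of the same 9 mice were taken 3 weeks after an injection of CT26 cells, which derive from a colon carcinoma of the mouse, into the wall of the cecum, and the study calls this liver pre-metastatic. The control livers came from 5 sham-operated mice, which had received culture medium without cells in the same place and were killed at the same time. No group carried an altered gene, the tumors all came from 1 transplanted line, and each library came from 1 tissue of 1 mouse. The 9 tumor-bearing mice each gave a liver and a tumor library. Total counts were between 51064615 and 60393702 in the control livers, 44587556 and 79773163 in the pre-metastatic livers, and 47005276 and 70884436 in the tumors.

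Hepatocytes take up fatty acids, activate them to acyl-CoA esters, pass long chains through the carnitine shuttle into mitochondria and shorten them there by rounds of dehydrogenation, hydration, a further dehydrogenation and thiolysis. Peroxisomes shorten very long and unusual chains by a related route, and the acetyl-CoA formed in the fasted liver leaves it as ketone bodies. PPAR alpha, a nuclear receptor that senses fatty acids, binds DNA together with the retinoid X receptor and raises the transcription of most of these genes in the fasted liver.

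Levels are given as RPKM, the count scaled to the length of the gene and to the total of the library, which allows genes of different length to be compared. *Fabp1*, which encodes the liver fatty acid binding protein, had the highest level of the 37 members in both liver groups, with a mean of 3719 RPKM ± 2013 (SD, n = 5) in control livers and 4066 ± 1827 (SD, n = 9) in pre-metastatic livers. *Acaa2*, the thiolase of the mitochondrial cycle, came next with 550 RPKM ± 101 (SD, n = 5) and 499 ± 108 (SD, n = 9). In the control livers *Acadm*, *Acadvl* and *Hsd17b4* followed, with mean levels of 362, 314 and 231 RPKM. In the pre-metastatic livers the places after *Acaa2* were held by *Acadvl*, *Crot* and *Hadh*, with means of 195, 165 and 139.8 RPKM. *Acadm* was no longer among the 5 highest. The place of *Crot* rests on the mean: it ran from 85.0 to 275.9 RPKM. Its median of 122.4 RPKM was below those of *Hadh* (135.2) and *Acadm* (124.3). In the tumors *Acadl* had the highest mean at 57.6 RPKM ± 3.83 (SD, n = 9), followed by *Angptl4* at 46.4 ± 13.4 (SD, n = 9) and *Eci1* at 40.7 ± 5.68 (SD, n = 9). In the control livers the ranges of *Acadm* and *Acadvl* overlapped, while *Fabp1* lay above *Acaa2*, and *Acadvl* above *Hsd17b4*, in every library.

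**Figure D1:**
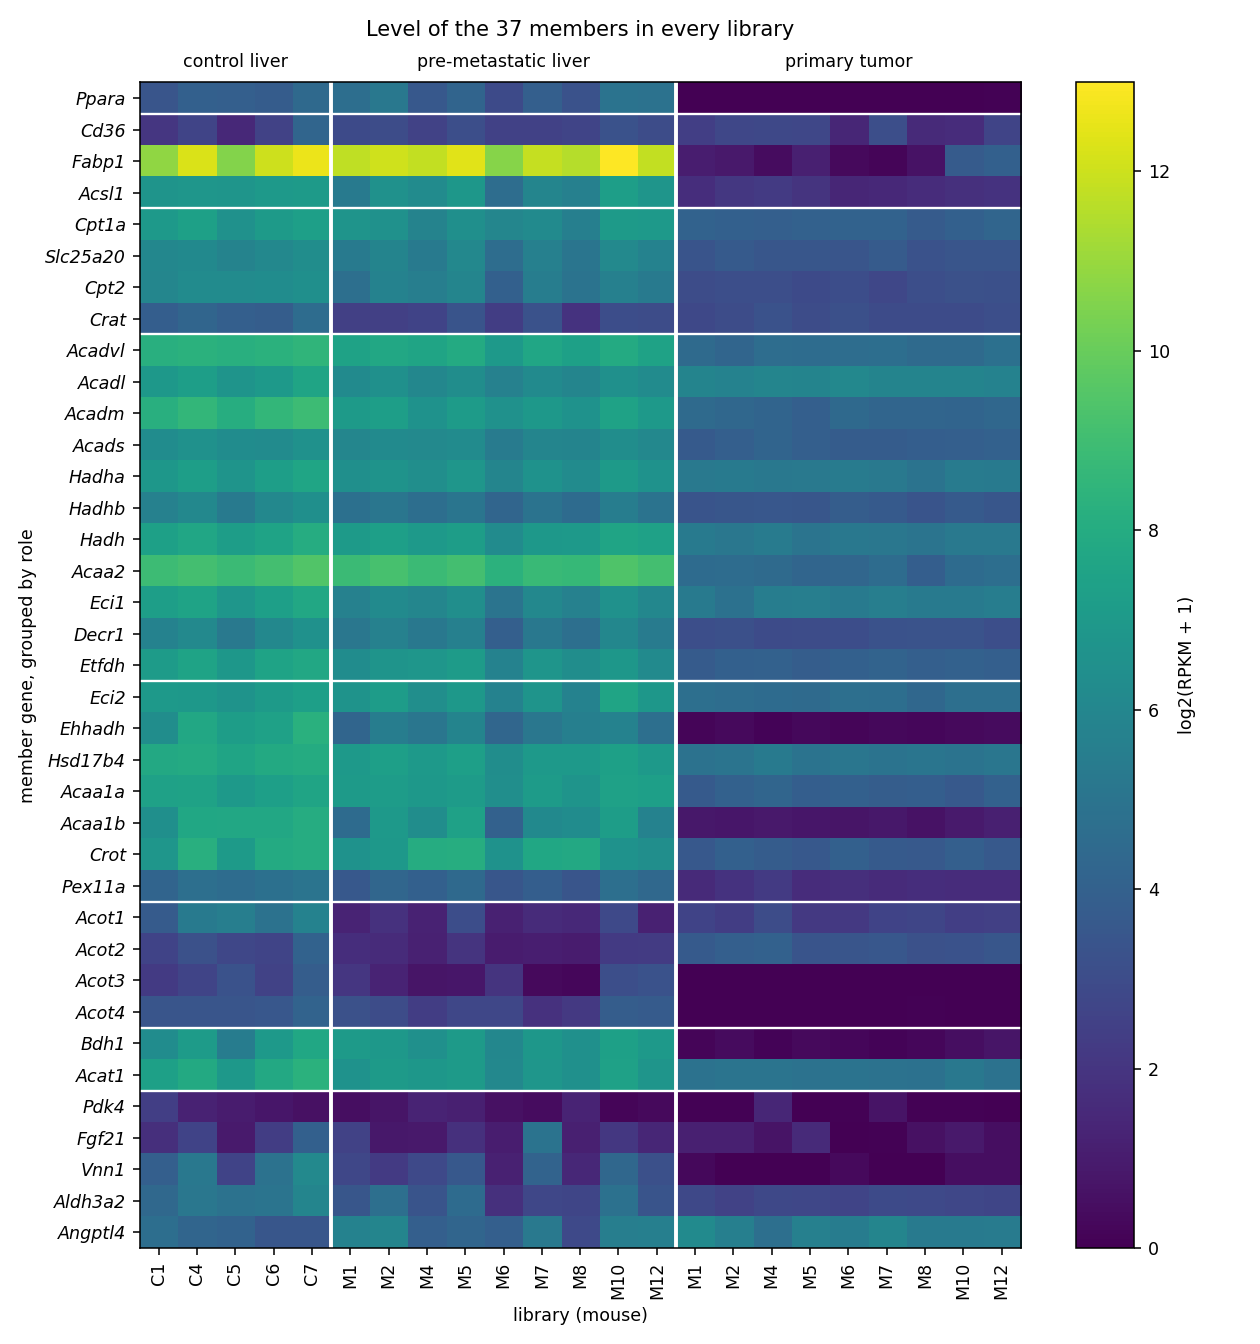
Level of each member (rows, grouped by role) in each library (columns, named by mouse), as log2(RPKM + 1) on the colour scale. Livers and tumors separate in most rows. Many members stayed visible in all 9 tumors, among them *Acadl*, *Angptl4*, *Eci1*, *Hadha* and *Hadh*, the 5 with the highest tumor means.

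The promoters of 4 members are shown first because each holds a sequence close to the element that PPAR alpha and its partner bind, and those of *Acot1* and *Ehhadh* because these 2 genes had the largest differences between the liver groups without such a sequence. RefSeq promoter windows of 300 bases on GRCm38.p6, from 250 before to 50 after a start site, were at hand for 30 of the 37 members. The letters searched on both strands were AGGTCANAGGTCA, 2 copies of AGGTCA with any base between them, with at most 2 mismatches. They were found in the windows of *Fabp1*, *Cd36*, *Slc25a20* and *Acot4*, 4 of 30 members, and in 3.86% of all 32851 windows. The match is in capitals. It begins at -67 from the start site in *Fabp1* with 1 mismatch, at -63 in *Cd36*, at -13 in *Acot4* and at 6 in *Slc25a20* with 2 mismatches each. The windows are chr6:71199629-71199928 (plus strand) for *Fabp1*, chr5:17835847-17836146 (minus strand) for *Cd36*, chr9:108661886-108662185 (plus strand) for *Slc25a20*, chr12:84038129-84038428 (plus strand) for *Acot4*, chr12:84009252-84009551 (plus strand) for *Acot1* and chr16:21787785-21788084 (minus strand) for *Ehhadh*.
Fabp1: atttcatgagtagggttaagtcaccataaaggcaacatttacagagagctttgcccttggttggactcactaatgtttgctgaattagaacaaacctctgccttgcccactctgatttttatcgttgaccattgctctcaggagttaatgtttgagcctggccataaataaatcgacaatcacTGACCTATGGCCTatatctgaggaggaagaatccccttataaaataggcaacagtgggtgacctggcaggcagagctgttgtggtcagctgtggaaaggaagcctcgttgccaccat
Cd36: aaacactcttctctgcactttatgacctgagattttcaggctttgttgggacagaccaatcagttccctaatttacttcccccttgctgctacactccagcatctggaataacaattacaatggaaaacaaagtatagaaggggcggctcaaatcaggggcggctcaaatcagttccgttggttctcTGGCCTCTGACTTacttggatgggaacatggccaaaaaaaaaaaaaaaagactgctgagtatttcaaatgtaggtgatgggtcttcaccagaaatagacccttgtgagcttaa
Slc25a20: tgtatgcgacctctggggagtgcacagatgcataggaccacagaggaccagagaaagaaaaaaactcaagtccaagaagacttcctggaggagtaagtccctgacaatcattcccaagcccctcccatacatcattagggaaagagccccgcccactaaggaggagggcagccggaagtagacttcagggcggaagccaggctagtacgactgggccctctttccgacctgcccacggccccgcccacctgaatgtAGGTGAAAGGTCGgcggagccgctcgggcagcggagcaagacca
Acot4: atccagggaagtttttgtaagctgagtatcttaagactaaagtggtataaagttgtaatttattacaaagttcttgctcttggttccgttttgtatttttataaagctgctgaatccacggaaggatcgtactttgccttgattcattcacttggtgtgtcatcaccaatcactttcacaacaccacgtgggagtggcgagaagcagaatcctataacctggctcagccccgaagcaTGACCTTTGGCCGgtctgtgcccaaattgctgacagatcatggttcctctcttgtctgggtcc
Acot1: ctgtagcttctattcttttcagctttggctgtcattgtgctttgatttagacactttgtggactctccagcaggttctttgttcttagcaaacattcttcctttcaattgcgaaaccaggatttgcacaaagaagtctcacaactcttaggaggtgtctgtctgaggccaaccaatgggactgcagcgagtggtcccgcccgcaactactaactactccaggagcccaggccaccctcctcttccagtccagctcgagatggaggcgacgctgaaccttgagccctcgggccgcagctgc
Ehhadh: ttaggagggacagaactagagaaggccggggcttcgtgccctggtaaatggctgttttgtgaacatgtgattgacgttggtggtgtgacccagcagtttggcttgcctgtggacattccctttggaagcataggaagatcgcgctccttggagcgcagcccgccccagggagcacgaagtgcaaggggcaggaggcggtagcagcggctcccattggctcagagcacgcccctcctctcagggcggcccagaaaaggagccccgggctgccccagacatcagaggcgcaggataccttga
A single exact copy of AGGTCA, which the longer match can contain, stood in the windows of 7 members (*Acadm*, *Acadvl*, *Acot3*, *Acot4*, *Cd36*, *Cpt1a* and *Fabp1*) and in 16.3% of all windows. The E-box CACGTG, which clock proteins can bind, stood in those of *Acot4*, *Aldh3a2* and *Fgf21* and in 7.15% of all windows. None of the 4 genes whose windows held the direct repeat passed the test between the liver groups described next, although *Slc25a20* and *Acot4* were lower with the clock phase as a covariate and *Cd36* was higher without control C7. All 4 passed the test as lower in the tumors, although *Cd36* did not with library totals. Between the liver groups 18 of the 37 members and 13.3% of all genes tested were lower. In the tumors 34 of the 37 members and 39.5% of all genes tested were lower. With only 4 genes, these counts do not set the members with the repeat apart from the others.

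The livers of tumor-bearing and sham-operated mice were compared to ask how hepatic fatty acid oxidation stood before metastases appeared. Of the 37 members, 18 (48.6%) were lower in the pre-metastatic livers and 0 were higher in edgeR's quasi-likelihood test with Benjamini-Hochberg adjustment over 16987 genes, of which 13.3% were called lower and 17.7% higher. DESeq2 likewise called 0 members higher (20% of all genes), and at an unadjusted threshold of 0.05 edgeR's test had 1, *Angptl4* (unadjusted *p* = 0.0323 in the model fitted across all genes). Of all calls, 42.9% were on the lower side, against 54.05% with library totals in place of TMM factors and 58.01% with an exact Wilcoxon test of the RPKM values, while the members' counts were 20 and 18 lower (16.5% and 15.9% of all genes) and 0 higher (14% and 11.5%). The median log2 fold change was -0.62 over the members and 0.01 over all genes tested. In 10 members every pre-metastatic liver lay below every control liver, which was the case for 6.09% of all genes tested. Lower members were found in every role with more than 3 members: 2 of 4 of the carnitine shuttle, 8 of 11 of the mitochondrial cycle, 3 of 7 peroxisomal genes and 2 of 4 acyl-CoA thioesterases. They were also found for 1 of 2 ketone body genes and 2 of 5 other targets.

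Several marker lists moved with the livers' groups. All 8 acute phase genes were higher in the pre-metastatic livers (summed level 17795 to 59599 RPKM against 5797 to 14607), as were 6 of 8 macrophage genes (133.7 to 380 against 59.7 to 124) and 5 of 7 tested neutrophil genes (7.44 to 125 against 6.61 to 19.5). Of 10 hepatocyte markers, 3 were lower and 1 was higher, and their summed level was 36766 to 80594 RPKM in pre-metastatic and 50353 to 60576 RPKM in control livers. The 8 adipocyte markers summed to 4.195 to 31.05 RPKM in control livers, highest in C6 (31.05) and C1 (19.35). In pre-metastatic livers they summed to 3.404 to 14.25 RPKM, and of the 2 tested 0 were called. The part of these lists in the differences of the members and of the other pathway genes was not tested. In whole tissue, fewer cells of a type and less RNA per cell cannot be told apart.

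*Ppara* itself, the receptor, was between 9.83 and 20.9 RPKM in the 5 control livers, with single values of 9.83 (C1), 15.1 (C4), 14.1 (C5), 12.7 (C6) and 20.9 (C7). The 9 pre-metastatic livers ran from 6.54 in M6 over a median of 17.5 to 35.3 in M2. The groups overlapped, the pre-metastatic livers spread more widely on both sides, and the log2 fold change of 0.52 ± 0.35 (SE) did not pass the test (adjusted *p* = 0.28). Of the genes for uptake and activation, *Cd36*, a fatty acid transporter of the cell surface, had single values of 3.19, 5.28, 1.80, 4.90 and 17.7 RPKM in control mice C1, C4, C5, C6 and C7 and 4.63 to 8.59 with a median of 6.46 in pre-metastatic livers. Its log2 fold change was 0.04 ± 0.37 (SE) with an adjusted *p* of 0.95, and without C7, the control far above the others, it was 0.80 with an adjusted *p* of 0.024. *Fabp1* and *Acsl1*, a long-chain acyl-CoA synthetase, overlapped as well, at 1508 to 6265 against 1586 to 8140 RPKM and 103 to 133 against 24.4 to 153 RPKM.

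In the carnitine shuttle, *Crat* and *Cpt2* fell. *Crat* encodes carnitine acetyltransferase and overlaps *Dolpp1* on the other strand, which had up to 1133 counts against 588 to 3219 for *Crat* in the pre-metastatic livers and cannot be told apart from it without strand. Its control values were 13.49 (C1), 17.6 (C4), 14.3 (C5), 13.2 (C6) and 23.2 RPKM (C7) against 2.76 to 9.30 with a median of 5.07 in the pre-metastatic livers. No pre-metastatic liver reached the lowest control, and the difference was 2.60-fold (log2 -1.38 ± 0.23 SE, adjusted *p* = 0.00058). *Cpt2*, carnitine palmitoyltransferase on the inner membrane, was 60.6 (C1), 76.0 (C4), 76.9 (C5), 79.4 (C6) and 88.7 RPKM (C7) against 15.0 to 59.3 with a median of 43.9. The groups again did not overlap, with a 1.82-fold difference (log2 -0.86 ± 0.21 SE, adjusted *p* = 0.0064). *Cpt1a*, the rate-limiting palmitoyltransferase of the outer membrane, was 130.5 (C1), 168 (C4), 94.7 (C5), 136.5 (C6) and 160.4 RPKM (C7) against 48.2 to 135 with a median of 87.2. Its lowest control lay inside the range of the pre-metastatic livers, and the log2 fold change of -0.58 ± 0.23 (SE) missed the threshold (adjusted *p* = 0.073). *Slc25a20*, the carrier that exchanges acylcarnitine for carnitine, was 54.8 to 82.4 RPKM in controls and 24.1 to 67.2 in pre-metastatic livers.

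The acyl-CoA dehydrogenases, which open each round of the mitochondrial cycle, fell for all chain lengths but by different amounts. *Acadm*, for medium chains, had the largest difference: its control values were 296 (C1), 384 (C4), 271 (C5), 381 (C6) and 479.9 RPKM (C7), and the pre-metastatic livers ran from 92.5 in M6 over a median of 124 to 178 in M10. The highest pre-metastatic liver was well under the lowest control, and *Acadm* was 2.71-fold lower (log2 -1.44 ± 0.15 SE, adjusted *p* = 3.1e-05). *Acadl*, for long chains, was 103 to 189 against 51.6 to 92.0 RPKM (log2 -0.84 ± 0.14 SE, adjusted *p* = 0.00049). *Acadvl*, for very long chains, was 289 to 360.4 against 127 to 249 RPKM (log2 -0.62 ± 0.11 SE, adjusted *p* = 0.00091). Neither gene's groups overlapped. *Acads*, for short chains, moved least, at 75.9 to 95.1 against 41.4 to 81.7 RPKM with overlap (log2 -0.30 ± 0.11 SE, adjusted *p* = 0.0497), and its call was lost when any of 12 of the 14 livers was left out.

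Among the later steps, *Hadhb*, the thiolase subunit of the trifunctional protein, fell 2.02-fold, from 51.3 (C1), 64.9 (C4), 38.1 (C5), 65.6 (C6) and 88.6 RPKM (C7) to between 17.7 and 44.3 with a median of 29.4 (log2 -1.01 ± 0.19 SE, adjusted *p* = 0.00098). *Hadha*, the subunit with the hydratase and dehydrogenase activities, fell 1.46-fold, from 105 to 198 against 58.4 to 135 RPKM (log2 -0.55 ± 0.16 SE, adjusted *p* = 0.019). Control C5 was the lowest control for both genes and lay inside the pre-metastatic range, as did C1 for *Hadha*, whose call was lost without C6 or C7 (adjusted *p* up to 0.071). *Hadhb* shares 18.1% of its 50-base sequences with the pseudogene *Gm13910*, so that its count is less certain. *Eci1*, an isomerase needed for unsaturated chains, was 157 (C1), 187 (C4), 114 (C5), 162 (C6) and 224 RPKM (C7) against 31.2 to 95.4 with a median of 62.9. Its groups did not overlap, and the difference was 2.49-fold (log2 -1.32 ± 0.19 SE, adjusted *p* = 0.00016). *Etfdh*, which passes the electrons of the dehydrogenases to ubiquinone, was 118 to 217 against 53.5 to 139 RPKM with overlap (log2 -0.74 ± 0.17 SE, adjusted *p* = 0.0035). *Hadh*, *Decr1* and *Acaa2*, a short-chain dehydrogenase, the dienoyl-CoA reductase and the thiolase, did not pass the test. *Acaa2* lay closest to equality of the 11 mitochondrial genes, at 464 to 717 RPKM in control and 327 to 689 RPKM in pre-metastatic livers.

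**Figure D2:**
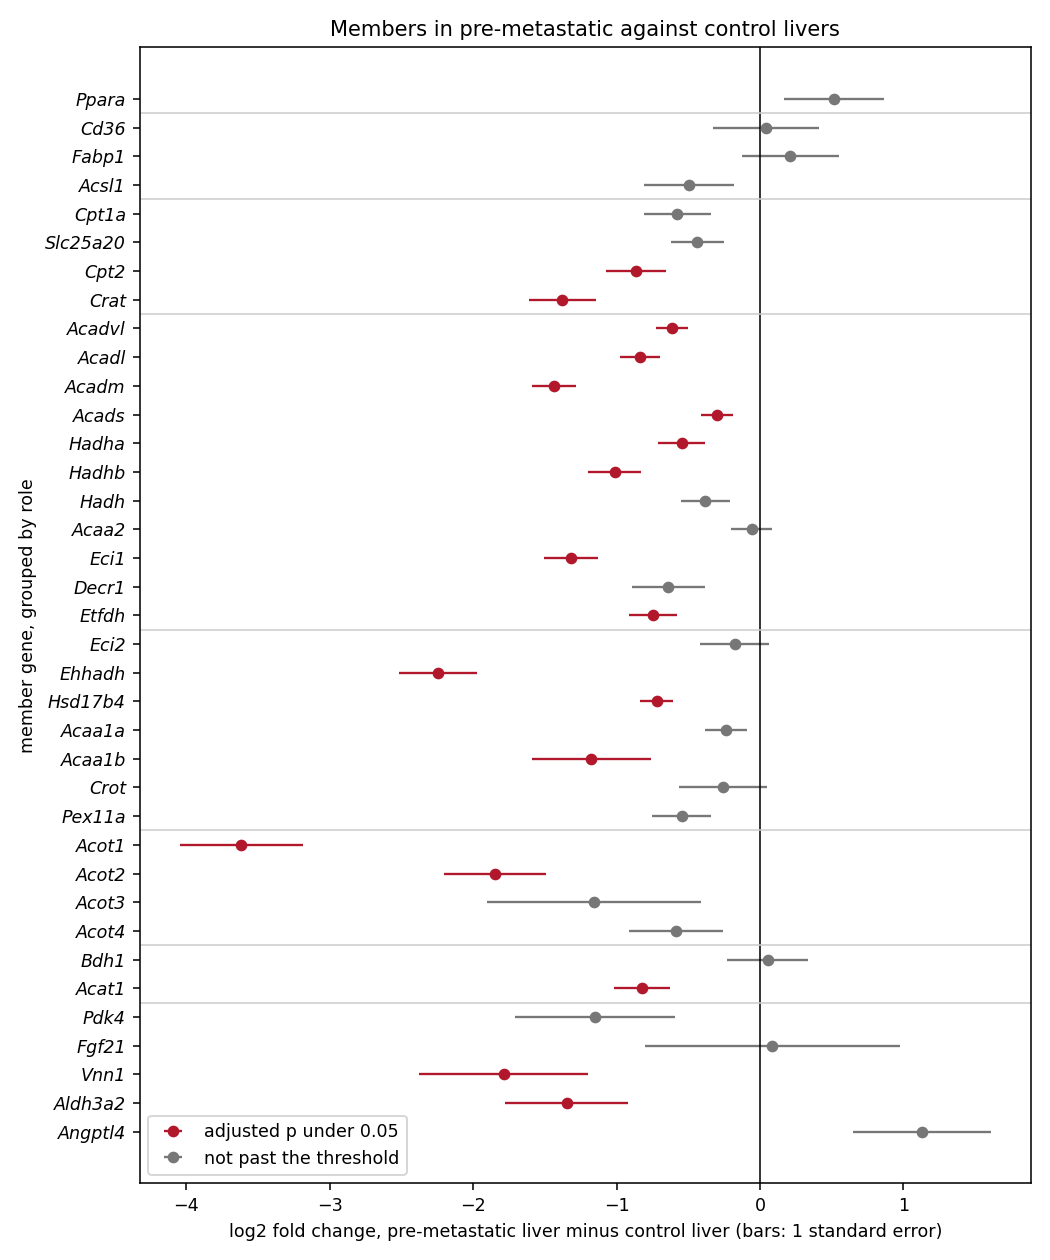
Log2 fold change of each member in pre-metastatic livers minus control livers (points) with 1 standard error on either side (bars), grouped by role. Red points passed the adjusted threshold: 18 members lie on the lower side and 0 on the higher side, with *Acot1* at -3.62 farthest from 0.

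Of the peroxisomal genes, *Ehhadh*, the bifunctional hydratase and dehydrogenase and a classical PPAR alpha target, fell most. Its control values were 82.7 (C1), 218 (C4), 149.5 (C5), 175 (C6) and 301 RPKM (C7), and the pre-metastatic livers ran from 17.6 in M1 over a median of 34.9 to 58.0 in M5. The groups did not overlap, and *Ehhadh* was 4.74-fold lower (log2 -2.24 ± 0.27 SE, adjusted *p* = 6.6e-05). *Hsd17b4*, the second bifunctional enzyme, was 195 to 252 against 81.6 to 163 RPKM, also without overlap (log2 -0.72 ± 0.11 SE, adjusted *p* = 0.00036). *Acaa1b*, a peroxisomal thiolase, was 89.1 (C1), 209 (C4), 222 (C5), 219 (C6) and 261 RPKM (C7) against 15.2 to 170.2 with a median of 78.6. Control C1 stood far below the other 4 and inside the pre-metastatic range (log2 -1.17 ± 0.42 SE, adjusted *p* = 0.042), and the call was lost in 9 of the 14 fits without 1 liver. *Acaa1b* shares 30.5% of its 50-base sequences with *Acaa1a* and lies across from *Dlec1* on the other strand. *Acaa1a* itself was 129 to 192 against 85.7 to 172 RPKM. *Eci2*, *Crot*, the carnitine octanoyltransferase, and *Pex11a*, a peroxisome division factor, overlapped between the groups, and none of the 3 passed the test. *Pex11a* was 17.3 to 30.9 RPKM in control and 9.74 to 25.6 RPKM in pre-metastatic livers.

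The acyl-CoA thioesterases, which release the free acid from its CoA ester, held the largest difference of all members. *Acot1*, the cytosolic enzyme (chr12:84009502-84017670, plus strand, mm10), was 12.3 (C1), 39.3 (C4), 46.6 (C5), 28.3 (C6) and 52.5 RPKM (C7). The 9 pre-metastatic livers were between 1.25 and 7.30 RPKM with a median of 1.84, M5 and M10 being the 2 above 6. Every one of them was below the lowest control, and *Acot1* was 12.3-fold lower (log2 -3.62 ± 0.43 SE, adjusted *p* = 5.2e-05). *Acot2*, its mitochondrial neighbour (chr12:83987861-83993877, plus strand, mm10), was 5.13 (C1), 8.34 (C4), 5.71 (C5), 5.35 (C6) and 15.9 RPKM (C7) against 0.993 to 3.77 with a median of 1.99. The groups did not overlap and the difference was 3.60-fold (log2 -1.85 ± 0.35 SE, adjusted *p* = 0.0013). *Acot2* shares 24.5% of its 50-base sequences with *Acot1*, and *Acot1* 13.6% with *Acot2*. *Acot3* and *Acot4*, both peroxisomal, were 3.62 to 13.1 against 0.174 to 8.55 RPKM and 9.62 to 16.3 against 2.65 to 13.1 RPKM. The groups of both overlapped, and an antisense gene overlaps both, whose reads cannot be told apart from theirs without strand.

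Of the ketone body genes, *Acat1*, a mitochondrial acetoacetyl-CoA thiolase, fell 1.77-fold, from 122 to 310.4 against 66.2 to 172 RPKM with overlap (log2 -0.82 ± 0.20 SE, adjusted *p* = 0.0054). *Bdh1*, which forms beta-hydroxybutyrate, was 43.2 to 212 in control and 62.6 to 168 RPKM in pre-metastatic livers.

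Among the other targets, *Vnn1* (vanin 1, a pantetheinase) was 14.5 (C1), 35.3 (C4), 5.15 (C5), 28.3 (C6) and 68.9 RPKM (C7) against 1.28 to 19.0 with a median of 6.38. The groups overlapped through C1 and C5, and *Vnn1* was 3.45-fold lower (log2 -1.79 ± 0.59 SE, adjusted *p* = 0.031), a call lost without C4, C6, C7 or M1. *Aldh3a2*, the fatty aldehyde dehydrogenase, was 20.3 to 59.0 against 2.47 to 28.3 RPKM (log2 -1.35 ± 0.43 SE, adjusted *p* = 0.026), a call lost without C7 (adjusted *p* = 0.086). *Pdk4*, the kinase that turns off pyruvate dehydrogenase, was 4.28 (C1), 1.33 (C4), 0.955 (C5), 0.732 (C6) and 0.496 RPKM (C7) against 0.144 to 1.45 (log2 -1.15 ± 0.56 SE, adjusted *p* = 0.13). C1 stood above all other livers, and it was also the control with striated muscle transcripts, with *Ckm* at 29.7 RPKM against at most 0.0138 in the other 4. Without C1 and M4, the pre-metastatic liver highest in *Ckm* at 7.06 RPKM, the log2 fold change of *Pdk4* was -0.45 (adjusted *p* = 0.54), while 16 members were lower and 1, *Angptl4*, was higher (log2 1.504, adjusted *p* = 0.049), beside 9.49% and 14.1% of all genes.

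*Fgf21*, a fasting hormone of the liver, was 2.34 (C1), 5.12 (C4), 0.93 (C5), 4.17 (C6) and 14.8 RPKM (C7) against a median of 1.66 and a range of 0.811 to 4.90 in 8 pre-metastatic livers and 30.1 RPKM in the ninth, M7. Its log2 fold change was 0.09 ± 0.89 (SE, adjusted *p* = 0.95), and without M7 it was -1.33 (adjusted *p* = 0.085). *Angptl4*, a secreted inhibitor of lipoprotein lipase, was the only member with a log2 fold change above 1: control values were 25.02 (C1), 17.9 (C4), 15.7 (C5), 10.2 (C6) and 9.94 RPKM (C7), and pre-metastatic livers ran from 6.20 over 37.7 to 59.0. The groups overlapped and the difference of 1.13 ± 0.48 (SE) did not pass the test (adjusted *p* = 0.086).

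The livers also differed among themselves by the phase of the circadian clock, for which the labels give no time of day. On an index of 6 clock genes, the mean standardized level of *Dbp*, *Per3* and *Ciart* less that of *Arntl*, *Npas2* and *Clock*, 4 control and 5 pre-metastatic livers lay between -2.35 and -0.10 (early phase) and C7, M1, M2, M10 and M12 between 0.98 and 2.92 (late phase). The phases were divided at the largest gap of the index. C7, at 0.98, lay about midway between M7 at -0.10 and M12 at 2.05, so that its phase is uncertain. The fits below that use the phase rest on its late label. The only late control, C7, was the highest control in RPKM for 33 of 37 members, a count that was not made over all genes. In the pre-metastatic livers 4 members were higher in every late than in every early liver, against 2.5% of all genes tested, and 0 were lower in every late liver, against 2.72%. *Ppara* was 24.6 to 35.3 RPKM in the 4 late and 6.54 to 17.5 RPKM in the 5 early pre-metastatic livers. *Angptl4* was 46.5 to 59.0 against 6.20 to 37.7 RPKM, *Cpt1a* 94.0 to 135 against 48.2 to 87.2 RPKM and *Acot4* 7.06 to 13.1 against 2.65 to 5.80 RPKM. *Crot* and *Pdk4* leaned the other way, with late medians of 98.0 and 0.316 RPKM and early medians of 230.7 and 1.21 RPKM, but their sets overlapped.

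With the phase as a covariate, 25 members were lower and 0 were higher, beside 13.6% and 17.3% of all genes. The members added were *Cpt1a* (log2 -0.81, adjusted *p* = 0.0039), *Slc25a20*, *Hadh*, *Decr1*, *Pex11a*, *Acot3* and *Acot4*, and the 18 called without it were all kept. The log2 fold changes of *Ppara* and *Angptl4* went to 0.07 and 0.58. In the early livers alone, 4 control and 5 pre-metastatic, 20 members were lower and 0 were higher, beside 10.9% and 14.7% of all genes. *Cpt1a*, *Hadh*, *Pex11a*, *Acot3* and *Acot4* were added, and *Etfdh*, *Acaa1b* and *Vnn1* missed the threshold at log2 fold changes of -0.63, -1.14 and -1.42. *Ppara* was at -0.11 and *Angptl4* at 0.13 in that comparison, and the late phase has 1 control, too few for a comparison of its own.

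**Figure D3:**
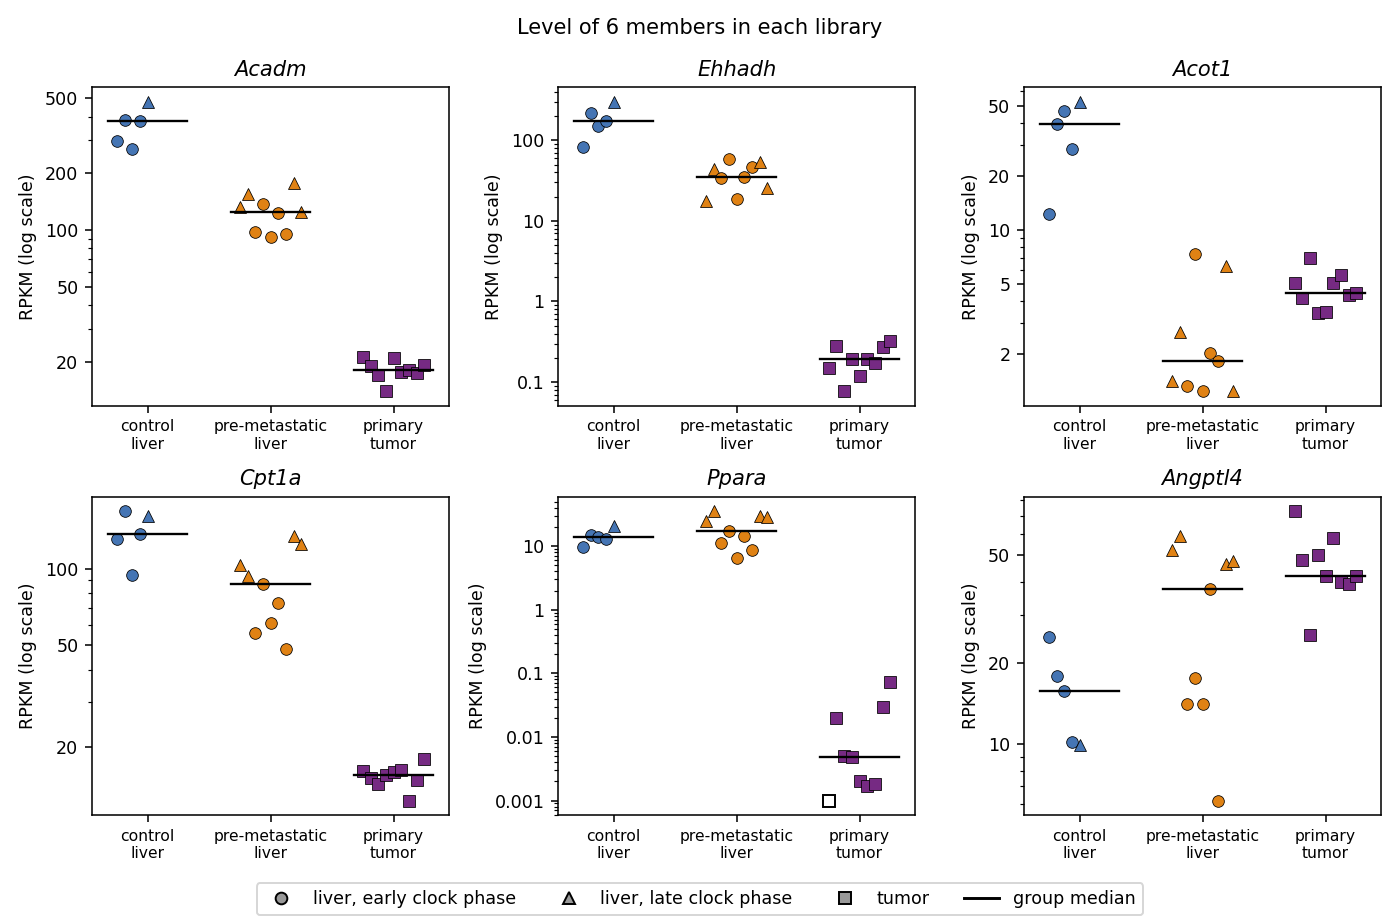
RPKM (log scale) of 6 members in each library, with circles for early-phase livers, triangles for late-phase livers, squares for tumors and a bar at the group median. The open square in the panel of *Ppara* is tumor M1, at 0. *Acadm*, *Ehhadh* and *Acot1* separate the 2 liver groups completely, while in *Ppara*, *Cpt1a* and *Angptl4* the late pre-metastatic livers lie above the early ones.

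The members also varied with the mouse. On the RPKM scale, pre-metastatic liver M6 was the lowest of 9 for 25 of the 37 members, and M10 was the highest for 23. In M6 the 10 most abundant genes held 27.9% of the counts, against 15.0% to 24.7% in the other pre-metastatic livers. Such a share bears on the RPKM of all other genes, and its part in these counts was not tested. The same counts were not made over all genes, so they do not set the members apart. M6 had the highest summed hepatocyte marker level of its group, 80594 RPKM. In the control livers the lowest value belonged to C5 for 21 members and to C1 for 11. The median coefficient of variation over the members was 25.9% in the control livers, 35.3% in the pre-metastatic livers and 13.9% in the tumors.

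Ratios within a library do not depend on how libraries are scaled, and they were formed for 4 pairs of related enzymes after their values had been seen. The ratio of *Acadm* to *Acadl* was 2.46 to 3.03 in the control livers, 1.56 to 1.93 in the pre-metastatic livers and 0.243 to 0.373 in the tumors, with no overlap between any 2 groups. *Hadhb* stood to *Hadha*, its partner in the trifunctional protein, as 0.364 to 0.447 in control, 0.282 to 0.330 in pre-metastatic livers and 0.252 to 0.316 in tumors, so that only the last 2 groups overlapped. *Acaa1b* exceeded *Acaa1a* in 4 of 5 control livers, in 1 of 9 pre-metastatic livers and in 0 of 9 tumors. *Acot2* was below *Acot1* in all 5 control livers (0.123 to 0.418), above it in 2 of 9 pre-metastatic livers and above it in all 9 tumors (1.49 to 3.49).

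**Figure D4:**
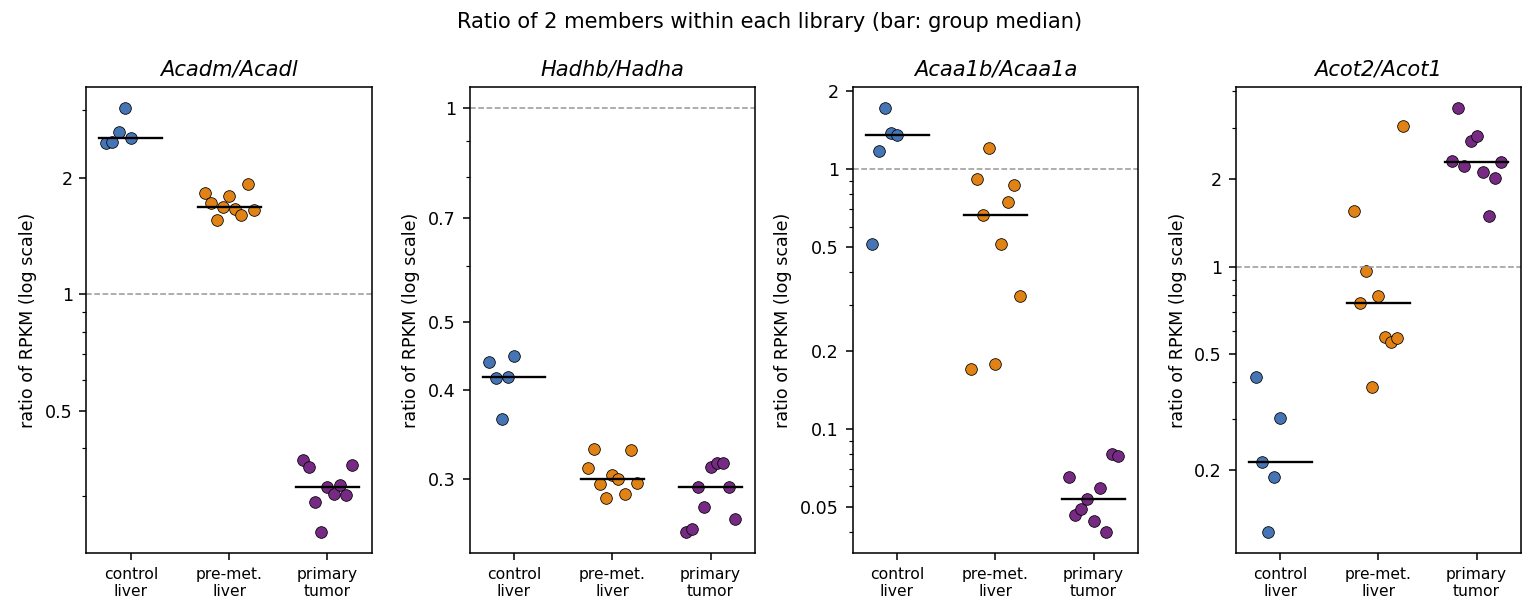
Ratio of the RPKM of 2 members (log scale) in each library of the 3 groups, with a bar at the median and a dashed line at equality. The ratio of *Acadm* to *Acadl* falls from medians of 2.54 and 1.68 in the livers to 0.317 in the tumors, and that of *Acot2* to *Acot1* rises from 0.213 and 0.747 to 2.28.

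Primary tumors and the livers of the same mice were compared to set the members' levels in the colon tumors beside those in the livers of the same mice. Of the 37 members, 34 were lower in the tumors and 1 was higher, beside 39.5% and 43.8% of 19749 genes tested. In 27 members every tumor lay below every pre-metastatic liver, against 14.2% of all genes tested. The median log2 fold change was -3.61 over the members and 0.13 over all genes, and it was the same with *Acot3* at the nearer bound of its ratio. With library totals in place of TMM factors the median log2 fold change of all genes lay 1.18 higher, 31 members were lower and 2 were higher (21.3% and 67.6% of all genes, or 20.9% and 67.4% for the same counts in the exact Wilcoxon test of RPKM), and the lower side held 23.95% of all calls instead of 47.45%. In a pre-metastatic liver the 10 most abundant genes held 19.7% of the counts (median), and in a tumor 5.45%. The fold changes below are therefore relative to the TMM scale, and where the other scale changes a call it is named.

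Hepatocyte transcripts were nearly absent from the tumors. All 10 hepatocyte markers were lower, with a summed level of 7.28 to 310.1 RPKM against 36766 to 80594 RPKM in the livers, and M10 and M12 were the highest tumors, with albumin (*Alb*) at 86.4 and 172.8 RPKM against 2.97 to 15.0 in the other 7. Of the 8 intestinal epithelial markers, 5 were lower and 2 higher in the tumors than in the livers. *Krt20* was 27.8 to 113 RPKM in the tumors, while *Cdx2* was at most 0.709 and *Vil1* at most 0.462. *Krt8* was 0.144 to 5.04 RPKM in the tumors against 80.9 to 127 in the pre-metastatic livers. The summed level of the macrophage markers was 916 to 2841 RPKM in the tumors, of which *Lyz2* made up 777 to 2564 RPKM. Of the 8 macrophage markers 4 were higher and 3 lower in the tumors than in the livers, and *Clec4f*, a marker of liver macrophages, was at most 0.268 RPKM.

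*Ppara* had 0 to 42 counts in a tumor and 3924 to 19403 counts in a pre-metastatic liver. On the RPKM scale the tumors ran from 0 over a median of 0.00487 to 0.0724, and the 2 highest were M12 and M10 (log2 fold change -11.45 ± 0.72 SE, adjusted *p* = 9.1e-12). Without these 2 tumors the log2 fold change was -12.99. *Fabp1* followed the same tumors: M10 and M12 had 12.4 and 14.8 RPKM, and the other 7 had 0.112 to 1.23, against 1586 to 8140 RPKM in the livers (log2 -11.29 ± 1.10 SE, adjusted *p* = 9.2e-09, and -13.80 without M10 and M12). Without them, 34 members were lower and 1 was higher as well, beside 39.5% and 42.4% of all genes. With the mouse as a replicate block the counts were also 34 and 1, beside 38.8% and 43.9% of all genes.

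The next largest falls were found in several roles. *Acot3* had 2 counts in all 9 tumors together against 5384 in the livers, a ratio of 2722 per total count with a 95% counting interval from 753.7 to 22480 (adjusted *p* = 6.1e-09 in edgeR's test). *Bdh1* was 0.0912 to 0.645 RPKM against 62.6 to 168 (log2 -10.03 ± 0.44 SE, adjusted *p* = 3.9e-14). *Acot4* was 0 to 0.0425 against 2.65 to 13.1 RPKM (log2 -9.40 ± 0.46 SE, adjusted *p* = 2e-13). *Acot3* and *Acot4* had at most 1 and 8 counts in a tumor, while *Bdh1* had 17 to 117. *Ehhadh* was 0.0772 to 0.324 against 17.6 to 58.0 RPKM (log2 -8.69 ± 0.33 SE, adjusted *p* = 4.2e-15). *Acaa1b* was 0.544 to 1.22 against 15.2 to 170.2 RPKM (log2 -7.87 ± 0.44 SE, adjusted *p* = 1.6e-12). *Vnn1* was 0 to 0.395 against 1.28 to 19.0 RPKM (log2 -6.92 ± 0.77 SE, adjusted *p* = 6.7e-08). Every tumor was below every liver for these 3 genes, and *Vnn1* was at 0 in tumor M7. *Acsl1* was 1.59 to 3.63 against 24.4 to 153 RPKM (log2 -6.13 ± 0.34 SE, adjusted *p* = 1.2e-12).

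The genes of the mitochondrial cycle remained transcribed in the tumors and varied little between them. All 11 were lower, with log2 fold changes from -5.77 to -1.52, and the median coefficient of variation over the tumors was 10.8%. It was 10.57% for the carnitine shuttle, 14.26% for the peroxisomal genes and between 40.4% and 155.8% for the other roles. The same value was not computed over all genes, so it does not set the cycle apart. *Acaa2* differed most, at 13.7 to 24.8 against 327 to 689 RPKM (log2 -5.77 ± 0.17 SE, adjusted *p* = 1.8e-16). *Acadvl*, *Acadm*, *Etfdh*, *Decr1*, *Acads*, *Hadh*, *Hadhb* and *Hadha* followed, with log2 fold changes of -4.26, -3.96, -3.88, -3.47, -3.38, -3.15, -2.61 and -2.51. In none of these 8 genes did a tumor reach the lowest liver. *Eci1* was 28.1 to 46.2 against 31.2 to 95.4 RPKM (log2 -1.83 ± 0.15 SE, adjusted *p* = 6.5e-10). *Acadl* was 53.1 to 66.4 against 51.6 to 92.0 RPKM (log2 -1.52 ± 0.09 SE, adjusted *p* = 6.1e-12, and -0.34 with library totals). In these 2 genes tumors and livers overlapped in RPKM.

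In the carnitine shuttle *Cpt1a*, at 12.3 to 17.9 against 48.2 to 135 RPKM (log2 -3.69 ± 0.20 SE, adjusted *p* = 8.3e-13), was joined by *Cpt2* at -3.60 and *Slc25a20* at -3.38. *Crat* was 5.98 to 8.63 RPKM in the tumors, inside the livers' range of 2.76 to 9.30, and its call (log2 -0.89 ± 0.18 SE, adjusted *p* = 0.00011) turned to 0.29 with library totals (adjusted *p* = 0.14). All 7 peroxisomal genes were lower in every tumor than in every liver, and besides *Ehhadh* and *Acaa1b* their log2 fold changes were between -4.88 (*Crot*) and -3.24 (*Hsd17b4*), with *Acaa1a* at -4.42, *Pex11a* at -3.93 and *Eci2* at -3.34. *Acat1* was 27.3 to 35.8 against 66.2 to 172 RPKM (log2 -3.11 ± 0.14 SE, adjusted *p* = 3.8e-14).

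*Acot2* was the only member higher in the tumors. Its 9 tumors had between 8.30 and 15.4 RPKM with a median of 10.2, all above the highest pre-metastatic liver at 3.77 RPKM (log2 1.195 ± 0.26 SE, adjusted *p* = 0.00026, and 2.38 with library totals). Of the control livers, C1, C5 and C6 lay below every tumor, and C4 and C7, at 8.34 and 15.9 RPKM, lay above the lowest tumor. *Acot1* was 3.42 to 6.97 RPKM in the tumors, above 7 of the 9 pre-metastatic livers and below every control liver. It did not pass the test on the TMM scale (log2 -0.39 ± 0.32 SE, adjusted *p* = 0.26) and was higher with library totals (0.74, adjusted *p* = 0.048).

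**Figure D5:**
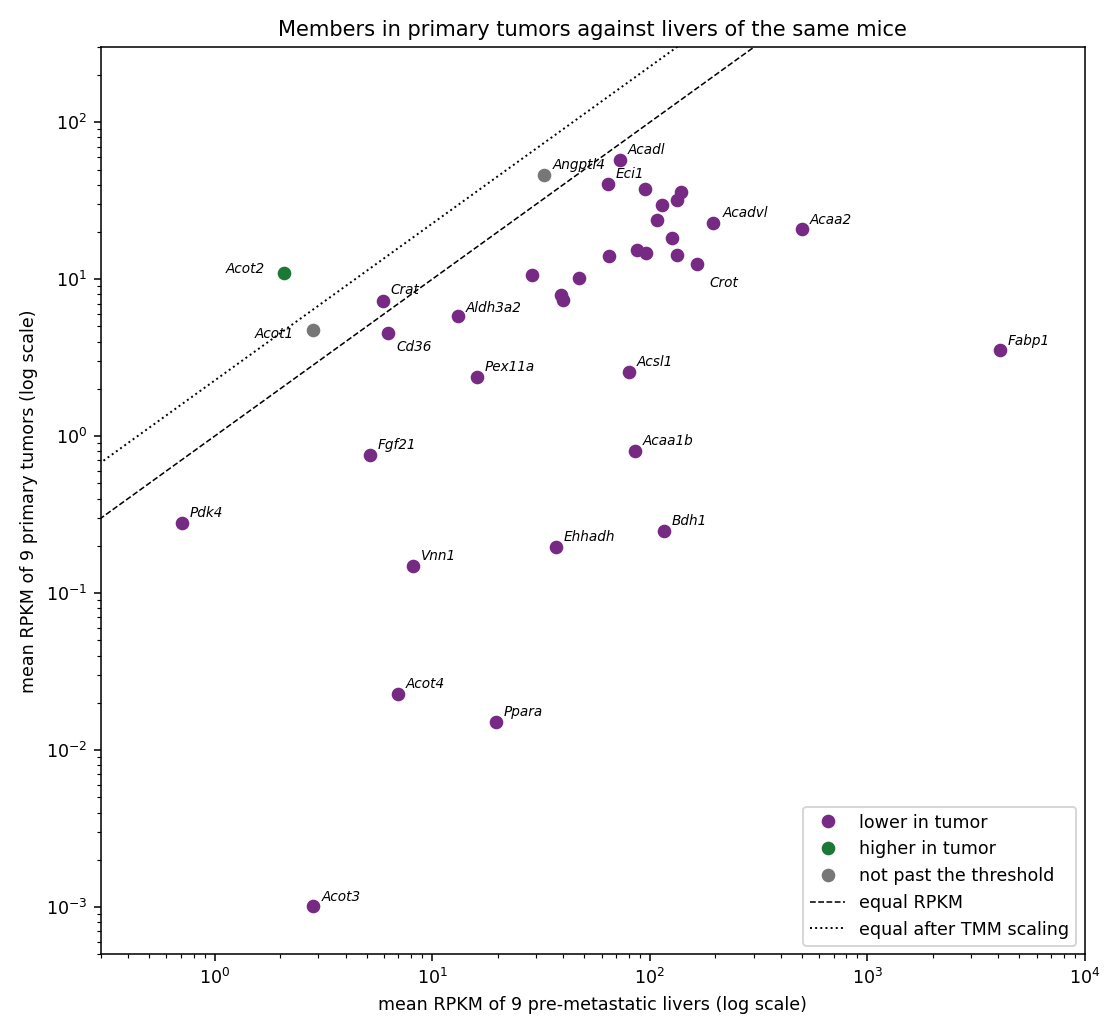
Mean RPKM of each member in 9 primary tumors against that in 9 pre-metastatic livers, both on log scales, with the dashed line at equal RPKM and the dotted line at equality after TMM scaling. Most members lie far below both lines, *Acot2* lies above both, and *Acot1*, *Angptl4* and *Crat* lie between them.

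*Cd36* was 1.62 to 7.77 RPKM in the tumors against 4.63 to 8.59 in the livers (log2 -1.65 ± 0.26 SE, adjusted *p* = 8.5e-06), and with library totals the difference of -0.47 missed the threshold (adjusted *p* = 0.099). *Pdk4* was 1.61 RPKM in tumor M4, 0.62 in M7 and 0.02 to 0.0696 in the other 7 against 0.144 to 1.45 in the livers (log2 -2.50 ± 0.82 SE, adjusted *p* = 0.0084). M4 and M7 were also the tumors with striated muscle transcripts, with *Ckm* at 113 and 19.2 RPKM against 0.0945 to 0.584 in the others, and without them the log2 fold change of *Pdk4* was -5.20 (adjusted *p* = 4.4e-08). With library totals and all tumors it was -1.34 and did not pass the test (adjusted *p* = 0.12). *Fgf21* was 0.0167 to 1.94 RPKM against 0.811 to 30.1 (log2 -3.98 ± 0.84 SE, adjusted *p* = 0.00021, and -2.58 without liver M7). *Aldh3a2* was 5.01 to 6.52 against 2.47 to 28.3 RPKM (log2 -2.31 ± 0.34 SE, adjusted *p* = 2.7e-06). Its tumors lay inside the range of the livers, and its call was lost in the exact Wilcoxon test of RPKM. *Angptl4* was 25.5 to 72.9 RPKM in the tumors against 6.20 to 59.0 in the livers (log2 -0.69 ± 0.35 SE, adjusted *p* = 0.073). With library totals its log2 fold change was 0.50 (adjusted *p* = 0.17).

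The rest of the pathway was described from lists of genes that are not members, also chosen with earlier results of these data known. In the pre-metastatic livers 12 of 24 other mitochondrial genes were lower and 4 were higher, 12 of 30 other peroxisomal genes were lower and 1 was higher, and 11 of 29 other PPAR alpha targets and partners were lower and 1 was higher. Over all genes tested, 13.3% were lower and 17.7% higher, so that the 4 of 24 were near the share of all genes. Among the mitochondrial genes *Cpt1b*, the muscle-type palmitoyltransferase, *Ech1*, a dienoyl-CoA isomerase, and *Acad10* fell most, with log2 fold changes of -2.25, -1.13 and -1.05. *Nudt7*, counted in this list although its product hydrolyses CoA in peroxisomes, was higher, at 5.42 to 132 RPKM against 10.5 to 26.0 RPKM in controls (log2 2.17 ± 0.52 SE, adjusted *p* = 0.0057), and *Acsl5*, an acyl-CoA synthetase, by 0.75. *Acsl6*, a further synthetase, had 0 counts in all 5 control livers and 4 to 42 in the pre-metastatic livers.

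*Phyh*, *Acox2* and *Decr2* fell most of the other peroxisomal genes (log2 -0.92, -0.85 and -0.74), and *Pmp22* rose (0.80). *Pmp22* encodes a myelin protein rather than a peroxisomal one. Of the other targets and partners, *Cidec*, a lipid droplet protein, was 3.60 to 24.2 against 0.371 to 2.37 RPKM (log2 -3.48 ± 0.43 SE, adjusted *p* = 6.6e-05). *Retsat*, retinol saturase, was 459 to 806 against 11.1 to 123 RPKM (log2 -2.97 ± 0.38 SE, adjusted *p* = 8.7e-05). *G0s2*, an inhibitor of triglyceride lipase, was 206 to 494 against 16.4 to 99.1 RPKM (log2 -2.62 ± 0.33 SE, adjusted *p* = 7.4e-05). None of these 3 genes overlapped between the groups, and *Ucp2*, an uncoupling protein, rose without overlap as well, with 9.19 to 23.0 against 23.45 to 44.5 RPKM (log2 1.22 ± 0.19 SE, adjusted *p* = 0.00033). *Rxra*, the partner receptor, was at -0.01 ± 0.09 (SE, adjusted *p* = 0.92), and *Ppargc1a*, a coactivator, at -0.94 ± 0.37 (SE, adjusted *p* = 0.066).

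In the tumors 22 of 24 other mitochondrial genes, 29 of 30 other peroxisomal genes and 21 of 29 other targets and partners were lower, and 1, 1 and 6 were higher, the 1 of the peroxisomal list being *Pmp22*. Over all genes tested, 39.5% were lower and 43.8% higher in the tumors. *Rxra* was 11.6 to 15.7 RPKM in the tumors, below every pre-metastatic liver. *Ppargc1a* was 0.0677 to 0.726 RPKM in the tumors against 0.282 to 0.922 in the livers (log2 -2.08 ± 0.36 SE, adjusted *p* = 2.6e-05). *Acsm5*, *Acsm1* and *Slc27a5* of the mitochondrial list, *Acox2*, *Acot12* and *Pxmp2* of the peroxisomal list and *Apoa5*, *Slc27a2* and *Creb3l3* of the targets had the largest falls, and none of the 9 exceeded 1.94 RPKM in a tumor. The genes that rose most were *Acot9*, a mitochondrial thioesterase (31.2 to 52.1 against 1.05 to 2.71 RPKM), *Slc27a1*, a fatty acid transporter (33.6 to 48.0 against 1.64 to 2.87 RPKM), *Hilpda*, a lipid droplet protein (20.4 to 70.4 against 1.36 to 2.83 RPKM), and *Txnip* (103.8 to 199.7 against 12.5 to 54.0 RPKM). All 4 were higher in every tumor than in every liver.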

How the data were processed

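RNA-seq of poly(A) RNA was deposited by the authors as 1 table with, for each gene and library, a read count and an RPKM value. Per the submitters' processing notes the tools were HISAT2 and HTSeq 0.6.0 with the mouse build mm10, and the annotation release and the strand setting of the counting are not given in the sources used here. The deposited RPKM values were the deposited counts divided by gene length and by the library total (largest relative difference 1.75e-06). The libraries were assigned by their labels, and 0 value columns were left unmapped. Members and gene lists were chosen with earlier results of these data known.

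The counts were tested with edgeR 4.0.16 (quasi-likelihood test, two-sided, TMM, at least 10 counts in at least 5 libraries, Benjamini-Hochberg over all genes tested, called at an adjusted *p* under 0.05) in R 4.3.3 with limma 3.58.1, the livers and the tumor and liver libraries being fitted separately. Levels were described as RPKM with Python 3.11.15 and pandas 2.3.3. The standard errors (SE) of log2 fold changes were derived from edgeR's test, as the size of the log2 fold change divided by the square root of its F statistic. They are therefore not a measure of spread independent of the *p*-values. The counting intervals and floors cover counting error only. On simulated counts the test recovered 168 of 200 changed genes among 16710 in the liver comparison, with 2 false calls. In the tumor comparison it recovered 169 of 200 among 19229, with 7 false calls. DESeq2 recovered 183 and 179 of the 200 on the same counts, with 34 and 37 false calls. The changed genes were drawn from those above a minimum mean count. Each was changed by more than *Acads*, *Hadha*, *Acadvl* or *Hsd17b4* differed between the liver groups. Recovery of smaller changes, or with as many changed genes as were called in the livers and tumors, was not tested. Fold changes with their tests were printed for members called in a comparison and, whatever their outcome, for *Ppara*, *Cpt1a*, *Fgf21*, *Pdk4*, *Cd36* and *Angptl4*. The other members were given by level. Of the other pathway lists, at most the 3 largest calls in each direction and, whatever their outcome, *Ppargc1a* and *Rxra* were named, and some list genes are not reported here.

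Alternatives were DESeq2 1.42.0, library totals, no filter on low counts, an exact Wilcoxon test of RPKM, the clock phase as a covariate, early-phase livers alone, leaving out each library and, for tumors, the mouse as a replicate block. Leaving out libraries with muscle or hepatocyte transcripts was chosen after seeing the data. Tumor and liver of the same number come from the same mouse, and the deviations of such pairs from their group means correlated with a mean r of 0.0682 (-0.0904 to 0.23) over 12748 genes.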

Additional observations from a re-analysis of the deposited data

Results flagged for a closer look

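Each member was examined in each of the 3 groups for a library far from the rest, as the gap from the highest or lowest library to its neighbour divided by the range of the group on the log2(RPKM + 1) scale. Of 111 such groups 9 stood out, and chance alone gives about 1 in 20, or 5.55. In the livers, *Hsd17b4* was 81.6 RPKM in pre-metastatic liver M6 against 125 to 163 in the other 8. *Fgf21* was 30.1 RPKM in pre-metastatic liver M7 against 0.811 to 4.90. *Acaa1b* was 89.1 RPKM in control C1 against 209 to 261 in the other 4. *Acot4* was 16.3 RPKM in control C7, the only late-phase control, against 9.62 to 10.5.

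In the tumors, *Ppara* was 0.0724 RPKM in M12, from 42 counts, against 0 to 0.0291 in the other 8. *Pdk4* was 1.605 RPKM in M4, the tumor with the most muscle transcripts, against 0.02 to 0.62. *Acadl* was 66.4 RPKM in M6 against 53.1 to 58.7. *Hadha* was 30.1 RPKM in M8 against 35.6 to 41.7. *Eci1* was 28.1 RPKM in M2 against 38.3 to 46.2.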

How the results depend on the processing

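In the livers the number of members called lower was 18 and lay between 16 and 25 under the other settings, and between 13 (without C7) and 22 (without M10) when 1 library was left out. The number called higher was 0, and 1 without the libraries with muscle transcripts (*Angptl4*), without C7 (*Cd36*) or without M8 (*Angptl4*), so that leaving out 1 library gave 0 to 1. Among the tumors 34 were lower (31 to 35 under the other settings, 34 to 35 without 1 library) and 1 was higher, or 2 with library totals and with the Wilcoxon test, *Acot1* being the second.

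Some log2 fold changes near 0 changed sign. *Ppara* was at -0.11 in early livers. *Cd36* was at -0.065 with library totals and in the Wilcoxon comparison and at -0.078 without the muscle libraries, and ran from -0.20 to 0.80 without 1 library. *Fgf21* was at -1.28 with DESeq2 (adjusted *p* = 0.04), -0.078 with library totals and -0.087 in the Wilcoxon comparison, and ran from -1.33 to 0.86 without 1 library. In the tumors *Crat* was at 0.29, *Angptl4* at 0.50 and *Acot1* at 0.74 with library totals and in the Wilcoxon comparison, whose RPKM values are scaled by those totals. The cause of the other changes was not tested. With the mouse as a replicate block 34 members were lower and 1 was higher, and the block changed no call of a member. *Pdk4* moved to -3.85 with it. Of the values of the 24 members whose liver fold changes were followed over all settings, 36 lost and 10 gained a call in the same direction, 16 changed sign and 442 kept direction and side of the threshold. For the 37 members in the tumors these numbers were 4, 6, 6 and 909.

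Over all genes in the tumors, library totals gave 4206 lower and 13352 higher and the Wilcoxon test 4124 and 13308, against 7809 and 8648. In the livers 1591 genes were lower and 2364 higher without the muscle libraries and 1954 were higher in the Wilcoxon comparison, against 2261 and 3009. With 5 controls, of which 1 was in the late phase, group and phase cannot be fully separated. Depth limits *Ppara*, *Acot3* and *Acot4* in tumors.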
